A study of Mus musculus with 2 samples.

Results

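The zinc finger genes on chromosome 17 that lie near the deleted miR-125a locus, and their neighbours Prdm9, Spaca6 and Ppp2r1a, were followed in regulatory T (Treg) cells. The 10 genes were Prdm9, Spaca6, Ppp2r1a, Zfp160, Zfp677, Zfp54, Zfp51, Zfp53, Zfp52 and Zfp948. They were read by every probe set whose platform annotation names 1 of them, which gave 22 of the 45101 probe sets on the array. The genes were picked with their signals on these arrays known, so their values are a description. The miR-125a KO group was Treg cells of miR-125a-deficient mice and the WT group was Treg cells of their wild-type littermates, at an age of 6 to 8 weeks in both groups. CD4+ spleen cells with high CD25 were sorted, RNA of several mice of a genotype was pooled in equal amounts, and each pool was read on 1 Affymetrix Mouse Genome 430 2.0 array. How the allele was made, how far the deletion reaches and how many mice entered each pool are not given in the sources used here.

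Clustered mouse Zfp genes mostly encode KRAB zinc finger proteins. Such a protein binds DNA with a row of zinc fingers, and its KRAB domain recruits the co-repressor KAP1, the product of Trim28, which brings in enzymes that methylate histones and DNA. Many of these proteins silence transposable elements, and their genes sit in clusters of close relatives that arose by duplication. Prdm9 encodes a histone methyltransferase with zinc fingers that sets the sites of meiotic recombination in germ cells. Spaca6 encodes a sperm protein needed for fertilisation, and Ppp2r1a encodes the scaffold subunit of the phosphatase PP2A, which is made in nearly all cells.

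The deleted microRNA is made together with miR-99b and let-7e, and all 3 precursors lie inside the span of Spaca6 in the RefSeq annotation. Their main mature arms are shown because they fix the locus from which the members are counted, with the seed, bases 2 to 8, in capitals (RefSeq, GRCm38.p6, plus strand, chr17:17830194-17830215 for miR-99b, chr17:17830366-17830387 for let-7e and chr17:17830817-17830840 for miR-125a).
mmu-miR-99b-5p: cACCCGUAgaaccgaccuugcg
mmu-let-7e-5p: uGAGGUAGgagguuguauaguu
mmu-miR-125a-5p: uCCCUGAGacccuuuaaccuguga
The 3 seeds differ, so the neighbouring microRNAs are not of the miR-125 family. None of the probe sets named any of these microRNAs, and the deletion itself could not be read.

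The annotated span of Spaca6 begins upstream of all 3 precursors, but the 1 start site listed for it in the RefSeq promoter table lies just downstream of miR-125a. The window around that start site (GRCm38.p6, chr17:17830725-17831024, plus strand) holds the whole miR-125a hairpin, in capitals.
Spaca6 promoter: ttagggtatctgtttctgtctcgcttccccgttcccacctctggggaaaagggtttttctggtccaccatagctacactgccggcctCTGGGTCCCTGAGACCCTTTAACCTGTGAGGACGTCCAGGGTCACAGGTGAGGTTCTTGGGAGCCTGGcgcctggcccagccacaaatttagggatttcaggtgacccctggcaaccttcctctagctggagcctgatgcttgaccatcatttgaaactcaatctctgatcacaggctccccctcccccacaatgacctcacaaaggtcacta
The hairpin fills bases 88 to 155 of this window, whose start site is base 251. Spaca6 is the member nearest to the deleted microRNA, and the reach of the KO deletion into this window is not known here.

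Spaca6 was dim in both pools. Its 3 probe sets read 35.5, 3.31 and 5.19 in the miR-125a KO pool, against 5.62, 23.5 and 4.11 in the WT pool, in the order 1453713_s_at, 1458116_at and 1430959_at. The first was higher in the miR-125a KO pool, the second lower, and the third was near the lowest signals of the array in both. All lay below the minimum mean signal of 62.5, the median over all probe sets, under which no ratio is read here.

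**Figure D1:**
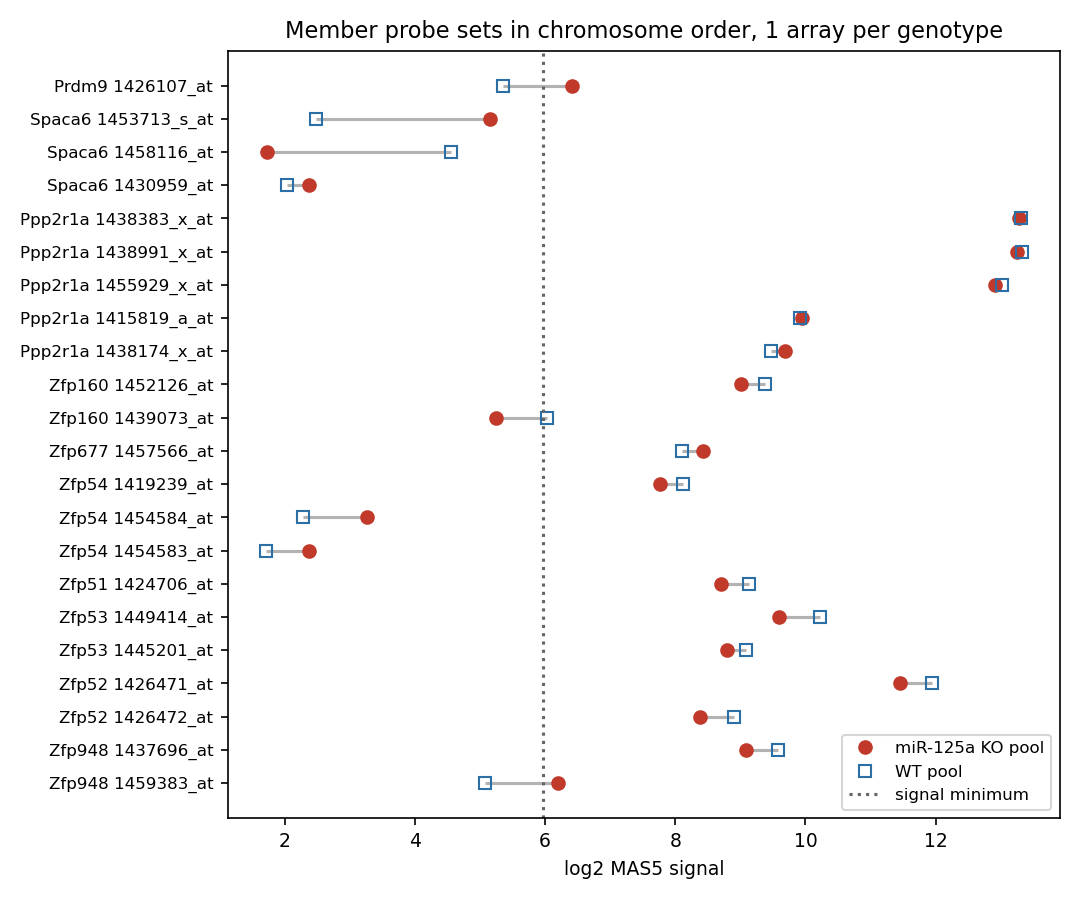
The deposited log2 MAS5 signal (x axis) of the 22 member probe sets (y axis, in chromosome order) in the miR-125a KO pool (filled circles) and the WT pool (open squares), with 1 array each and no error bar. The dotted line is the minimum mean signal of 62.5 on the linear scale, and 8 of the 9 zinc finger probe sets past it have the miR-125a KO circle left of the WT square.

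Of the 22 probe sets, 15 passed the minimum, covering 9 of the 10 genes, all but Spaca6. Ratios below are log2 of the miR-125a KO signal plus 16.3 over the WT signal plus 16.3, the added value being the 25th percentile of all signals, and they understate differences of dim probe sets. With 1 array per genotype there is no test between genotypes. The error given as probe-set SD is the spread of the ratio between 2 probe sets of the same gene over all genes of like signal. It ran from 0.38 for the dimmest to 0.16 for the brightest of 10 signal classes, and it leaves out variation between mice. None of the 15 reached 2-fold in either direction, the size used here for a call, while of all 22551 probe sets past the minimum 1.52% were lower by that much and 1.03% higher.

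Of the 7 zinc finger genes, 6 were lower in the miR-125a KO pool in each probe set past the minimum, by 1.22-fold to 1.53-fold, and Zfp677 was higher. Zfp52 gave the brightest zinc finger signal, 2785 in the miR-125a KO pool against 3948 in the WT pool. Its log2 ratio was -0.50 (probe-set SD 0.19). The dimmer Zfp52 probe set read 332 against 480, and its ratio of -0.51 had a probe-set SD of 0.27, so the probe sets of this gene gave nearly the same difference.

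Zfp53 read 774 in the miR-125a KO pool and 1194 in the WT pool on 1449414_at. Its log2 ratio of -0.62 (probe-set SD 0.23) was the lowest of the members past the minimum. On the other Zfp53 probe set the signal was 444 in the miR-125a KO pool and 546 in the WT pool, and the log2 ratio was -0.29 (probe-set SD 0.27), so the probe sets differed in size but not in direction.

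Zfp948 on 1437696_at read 544 in the miR-125a KO pool and 766 in the WT pool, a log2 ratio of -0.48 (probe-set SD 0.24). Its other probe set lay below the minimum and went the other way, at 73.1 in the miR-125a KO pool against 34.0 in the WT pool. Direction at Zfp948 therefore rests on the brighter of its probe sets.

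Zfp51 had 1 probe set, at 415 in the miR-125a KO pool against 559 in the WT pool. This is -0.42 on the log2 scale (probe-set SD 0.27). Zfp54 read 219 against 279 on 1419239_at, a log2 ratio of -0.33 (probe-set SD 0.32). Its other 2 probe sets lay near the lowest signals, at 9.61 and 5.20 in the miR-125a KO pool and 4.85 and 3.27 in the WT pool, and carry no direction. Zfp160, which stands apart from this group on the side of Ppp2r1a, read 516 against 666 on 1452126_at, a log2 ratio of -0.36 (probe-set SD 0.27), and 37.9 against 65.5 on its dim probe set. The dim Zfp160 probe set lay below the minimum, so direction at Zfp160 rests on 1452126_at.

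Zfp677 was the exception, at 343 in the miR-125a KO pool and 274 in the WT pool. Its log2 ratio of 0.31 was smaller than its probe-set SD of 0.32. It lies between Zfp160 and Zfp54 in gene order, so its direction was opposite to that of the members on both sides of it.

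Counted together, 8 of 9 zinc finger probe sets past the minimum were at least 1.2-fold lower, a size chosen after their values were seen, against 25% of all probe sets past the minimum and 22.5% of the 11996 whose signal lay in the same range. Their median log2 ratio was -0.42, against -0.03 over all probe sets past the minimum. Lower by more than 1 probe-set SD were 8 of the 9, against 23.7% of all, and by more than 2 probe-set SD 2 of the 9, the brighter ones of Zfp52 and Zfp53, against 7.81% of all. Nothing is read from these counts, since the genes were picked on the same contrast. Zinc finger genes of 1 cluster are sequence relatives, and whether their probes share transcripts was not tested.

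Ppp2r1a differed little. Its 3 bright probe sets read 9885, 9717 and 7686 in the miR-125a KO pool, against 10119, 10253 and 8307 in the WT pool, and the dimmer ones 985 and 824 against 966 and 709. The 5 log2 ratios ran from -0.11 to 0.21, each within its probe-set SD, and 3 were below 0. The sign of 1438383_x_at, -0.03, turned to 0.01 when the arrays were set to equal medians. Of the 5, 4 carry the suffix _x_at, which marks probes that can match other transcripts. Prdm9, on the other side of the deleted locus, read 85.4 in the miR-125a KO pool and 40.9 in the WT pool, at the edge of the minimum, or 0.83 on the log2 scale (probe-set SD 0.38). Of all probe sets, 18.6% were higher by more than 1 probe-set SD and 5.83% by more than 2, as Prdm9 was. Its ratio was the highest ratio of the members past the minimum and comes from 1 probe set. The WT signal of that probe set lay below the minimum, so it passed only through its miR-125a KO signal.

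The promoter windows of Zfp52, Zfp53, Zfp54 and Zfp948 are shown because these 4 zinc finger members hold a run of bases in common. Only windows of zinc finger members were searched, and those genes were picked with their signals known, so the run is not independent of the contrast. All 4 were lower in the miR-125a KO pool in their probe sets past the minimum. Zfp160, which was also lower, does not hold the run. RefSeq windows were found for 9 of the 10 members, and Zfp51 had no entry. Their start sites lay 3.11 megabases from miR-125a for Ppp2r1a, 3.18 for Zfp160, 3.55 for Zfp677, 3.59 for Zfp54, 3.66 for Zfp53, 3.70 for Zfp52 and 3.74 for Zfp948, and 2.27 on the other side for Prdm9. Each window runs from 250 bases before to 50 after the start site, on the plus strand of GRCm38.p6, at chr17:21422977-21423276 for Zfp54, chr17:21488738-21489037 for Zfp53, chr17:21535289-21535588 for Zfp52 and chr17:21566728-21567027 for Zfp948. Capitals mark a longest run of bases that all 4 hold.
Zfp54 promoter: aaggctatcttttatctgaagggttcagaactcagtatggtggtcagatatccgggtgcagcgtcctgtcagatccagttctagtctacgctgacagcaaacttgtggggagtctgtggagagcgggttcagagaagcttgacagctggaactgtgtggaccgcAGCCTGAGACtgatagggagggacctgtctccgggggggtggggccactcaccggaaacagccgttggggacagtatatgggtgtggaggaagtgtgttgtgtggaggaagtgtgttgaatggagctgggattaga
Zfp53 promoter: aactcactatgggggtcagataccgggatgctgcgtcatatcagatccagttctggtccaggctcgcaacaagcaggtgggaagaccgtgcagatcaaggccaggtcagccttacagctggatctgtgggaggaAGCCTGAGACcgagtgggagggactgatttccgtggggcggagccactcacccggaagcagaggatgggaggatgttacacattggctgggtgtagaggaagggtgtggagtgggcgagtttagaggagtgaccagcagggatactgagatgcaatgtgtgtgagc
Zfp52 promoter: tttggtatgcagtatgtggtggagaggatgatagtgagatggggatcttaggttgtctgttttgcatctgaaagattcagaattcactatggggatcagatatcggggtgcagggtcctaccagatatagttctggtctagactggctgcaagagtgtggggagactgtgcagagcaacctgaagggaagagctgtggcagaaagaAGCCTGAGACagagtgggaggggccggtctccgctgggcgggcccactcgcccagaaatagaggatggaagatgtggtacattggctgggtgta
Zfp948 promoter: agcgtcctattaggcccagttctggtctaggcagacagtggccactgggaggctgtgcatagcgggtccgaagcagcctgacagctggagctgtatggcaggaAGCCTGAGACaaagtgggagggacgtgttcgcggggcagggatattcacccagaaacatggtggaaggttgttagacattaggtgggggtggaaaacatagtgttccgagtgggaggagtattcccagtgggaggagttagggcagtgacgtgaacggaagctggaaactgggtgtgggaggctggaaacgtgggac

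The shared run was AGCCTGAGAC, 10 bases searched on both strands. It began 86 bases before the start site shown for Zfp54, 116 for Zfp53, 44 for Zfp52 and 147 for Zfp948. The windows of Zfp160 and Zfp677 did not hold it. It occurred in 51 of 32851 promoter windows of the same length, or 0.155%, and 6 of these belonged to 5 genes with a Zfp symbol, the 4 members and Zfp648. Between pairs of these windows the longest shared run was 16 bases for Zfp53 and Zfp52, 14 for Zfp54 and Zfp53 and for Zfp53 and Zfp948, and 13 for Zfp52 and Zfp948. For Zfp54 and Zfp948 it was 11, and for Zfp54 and Zfp52 it was 10. Zfp160 shared at most 10 bases with any other zinc finger member in the table and Zfp677 at most 11, so these lengths overlap. The run was found in these windows by looking for what they share, and it is not known here to be a binding site.

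Neighbouring genes along the chromosome were then described on the same arrays. Genes within 200 places of Mir125a on either side in RefSeq order were taken, members left out, which gave 166 probe sets, 92 of them past the minimum. On the Prdm9 side of miR-125a, 16 of 53 were at least 1.2-fold lower (30.2%, against 25% of all) and the median log2 ratio was -0.07. The 17 probe sets past the minimum within 50 genes of the locus had a median of -0.06, with 3 at least 1.2-fold lower. Between miR-125a and Zfp948 none of the 4 probe sets of other genes passed the minimum. Prdm9, a member, also lies within 50 genes of the locus and is not among these 17. Its ratio of 0.83, at the edge of the minimum, was larger in size than that of any zinc finger member past the minimum. The Prdm9 probe set passed the minimum only through its miR-125a KO signal, at 85.4 against 40.9, so nothing is read from this order. In units of probe-set SD the Prdm9 ratio was 2.20, smaller in size than the -2.68 and -2.64 of the brighter Zfp52 and Zfp53 probe sets.

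Beyond Zfp948 the row of zinc finger genes continues, and these were not among the members. Of their 20 probe sets past the minimum, from 12 genes, 15 had a ratio below 0 (75%), against 53.5% of all probe sets. That share was like those of the neighbours above, 76.5% within 50 genes of the locus and 66.0% on the Prdm9 side. At least 1.2-fold lower were 10 of the 20 Zfp probe sets (50%, against 25% of all), and their median was -0.31. Zfp983, the nearest of them, read 181, 57.4 and 199 in the miR-125a KO pool, against 357, 82.4 and 314 in the WT pool, with log2 ratios of -0.92, -0.42 and -0.62. Zfp942 had log2 ratios of -0.43 and -0.72 on its probe sets past the minimum, Zfp760 -0.36 and Zfp943 -0.36, while Zfp994 was higher, at 272 against 142, with 0.87. These were lower in both or all of their probe sets past the minimum, apart from Zfp994, and apart from Zfp994 they were named after their values were seen. Farther out the directions mixed, with Zfp945 at 0.55 and 0.03 and Zfp40 at 0.38, -0.57 and -0.20. The 19 probe sets of genes without a Zfp symbol beyond Zfp948 had a median of -0.13, with 14 below 0 (73.7%) and 5 at least 1.2-fold lower (26.3%).

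**Figure D2:**
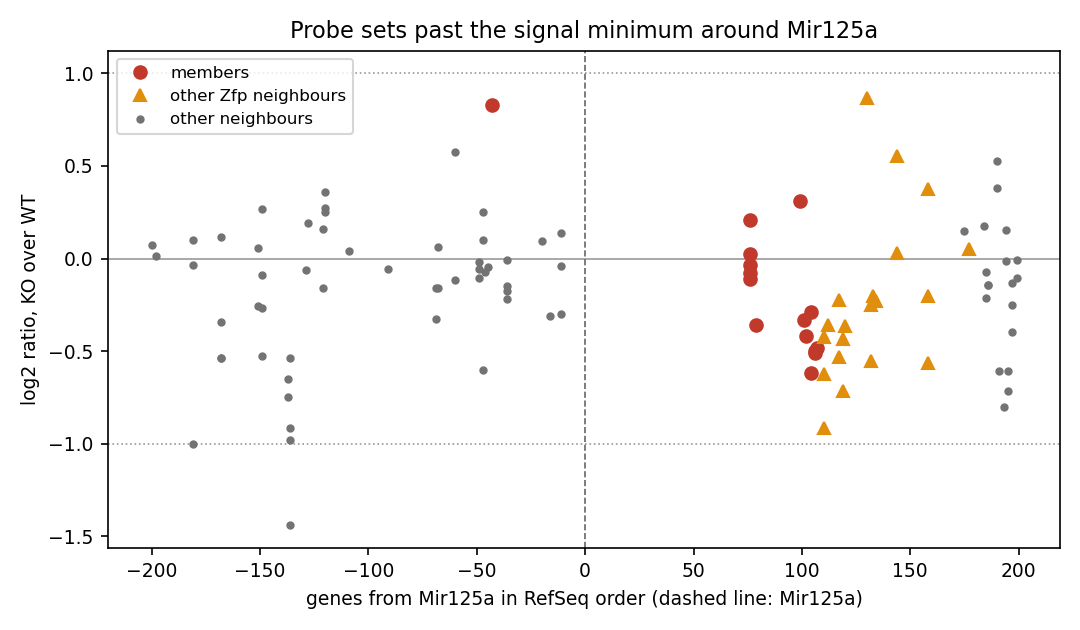
Log2 ratio of miR-125a KO over WT signal (y axis) of each probe set past the minimum against its gene's place from Mir125a in RefSeq order (x axis, Prdm9 side to the left), with 1 array per genotype. Members are circles, other Zfp genes triangles and other genes dots, and the dotted lines mark 2-fold. The zinc finger genes to the right lie mostly below 0, as do 13 of the 17 dots within 50 genes of the locus, whose median is -0.06.

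Among the 92 neighbouring probe sets, 2 were at least 2-fold lower and 0 at least 2-fold higher, while 2.55% of all probe sets past the minimum were beyond 2-fold in either direction. Both lie on the Prdm9 side, far from the locus. Airn, a noncoding RNA that silences Igf2r in cis on the paternal chromosome, read 40.7 against 138 on 1446095_at, a log2 ratio of -1.44 (probe-set SD 0.38). Its other 3 probe sets past the minimum had -0.54, -0.92 and -0.98, and Igf2r, which encodes a receptor that takes up mannose 6-phosphate proteins and overlaps Airn, had -0.65 and -0.74. One probe set of 1700010I14Rik read 59.4 against 135, 2.0-fold lower, while its other probe sets had 0.10 and -0.04. Both probe sets at 2-fold had miR-125a KO signals below the minimum and passed only through their WT signals, so the size of their ratios is not read. The other 3 Airn probe sets had miR-125a KO signals above the minimum.

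Zinc finger genes elsewhere in the genome were measured as a comparison. All genes named Zfp and a number, members left out, had 336 probe sets past the minimum, which include the neighbours above. Of these, 98 were at least 1.2-fold lower (29.2%), and the median log2 ratio was -0.11. Off chromosome 17 the median was -0.09 over 299 probe sets, with 26.8% at least 1.2-fold lower, close to the 25% of all probe sets. Across the 13 chromosomes with at least 10 such probe sets, the medians ran from -0.33 to 0.05. The lowest was that of chromosome 4, from 14 probe sets, 4 of which belong to Zfp292, with ratios from -0.73 to -0.43. Of these 14, 8 were at least 1.2-fold lower (57.1%). The median of the other Zfp genes of chromosome 17, the neighbours among them, was -0.25 over 37 probe sets. At least 1.2-fold lower were 18 of the 37 (48.6%). The members were picked on this contrast, so their median is not ranked against these.

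**Figure D3:**
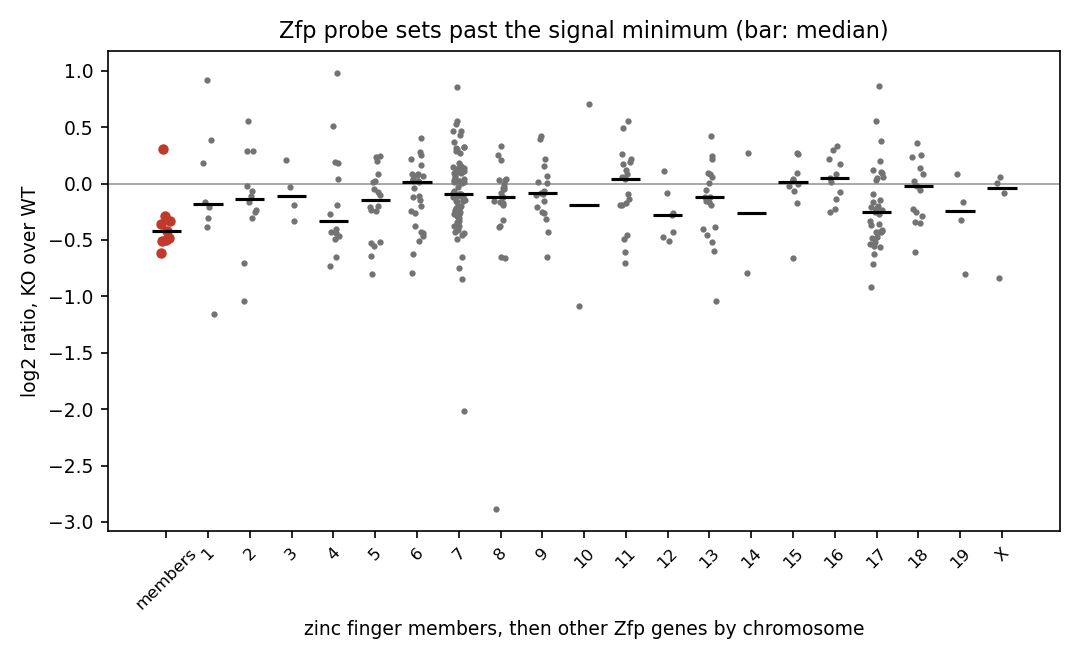
Log2 ratio of miR-125a KO over WT signal (y axis) of Zfp probe sets past the minimum, for the zinc finger members (first column) and for the other Zfp genes by chromosome (x axis), with a bar at each median. The members' median is -0.42, and those of chromosomes 4 and 17 are -0.33 and -0.25.

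At 2-fold, 6 of the 336 other Zfp probe sets were lower (against 1.52% of all probe sets) and 0 higher. Zfp358 read 7.21 in the miR-125a KO pool and 158 in the WT pool, with a log2 ratio of -2.89. Zfp787 read 23.6 against 145, with -2.01. The other 4 were Zfp451, Zfp433, Zfp935 and Zfp931, with log2 ratios of -1.15, -1.08, -1.04 and -1.04. Other probe sets of these genes past the minimum differed less, with 0.04 and 0.14 for Zfp787 and -0.20, 0.39 and -0.16 for Zfp451. The called probe sets of Zfp358, Zfp787 and Zfp433 had miR-125a KO signals below the minimum, that of Zfp433 at 44.3 against 112. They passed only through their WT signals, and dim MAS5 values are erratic, so the size of their ratios is not read. None of the 6 lies on chromosome 17, and 3 of the 6, those of Zfp787, Zfp931 and Zfp935, carry the suffix _x_at.

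The partners through which KRAB zinc finger proteins act were read next. Of 48 probe sets past the minimum for a list of 25 co-repressor names, 0 reached 2-fold in either direction, 15 were at least 1.2-fold higher (against 18.4% of all probe sets) and 4 at least 1.2-fold lower (against 25% of all), with a median log2 ratio of 0.16. Trim28, the direct partner of the KRAB domain, read 2641 and 4562 in the miR-125a KO pool, against 2400 and 3823 in the WT pool, with log2 ratios of 0.14 and 0.25. Suv39h2, a histone H3 lysine methyltransferase, had the highest ratio past the minimum, at 219 against 104 and 0.97 (probe-set SD 0.38). Morc3, a nuclear ATPase, had the lowest, at 85.7 against 127 and -0.49, while its brighter probe sets had -0.20 and 0.19. Setdb1, the methyltransferase that KAP1 recruits, had 0.15 on its brightest probe set and Dnmt1, the maintenance DNA methyltransferase, 0.21, 0.34 and 0.36.

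Around Ppp2r1a, a list of other PP2A genes was read, which holds regulators of the phosphatase as well as its subunits. Of 61 probe sets past the minimum for 31 names, 0 reached 2-fold, 11 were at least 1.2-fold lower (against 25% of all probe sets) and 16 at least 1.2-fold higher (against 18.4% of all), with a median of 0.07, against -0.03 over all. Ppp2ca, the main catalytic subunit, read 9350 against 8102 on its brightest probe set, a log2 ratio of 0.21. Ppp2r3a, a regulatory subunit, had the highest ratio, 0.78, at 1313 against 759, and 0.48 and 0.42 on its other probe sets. Ppp2r5c, a regulatory subunit of another class, had the lowest, -0.96 on 1425726_x_at, at 127 against 263. Its brightest probe set read 5126 against 6337, with -0.31.

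**Figure D4:**
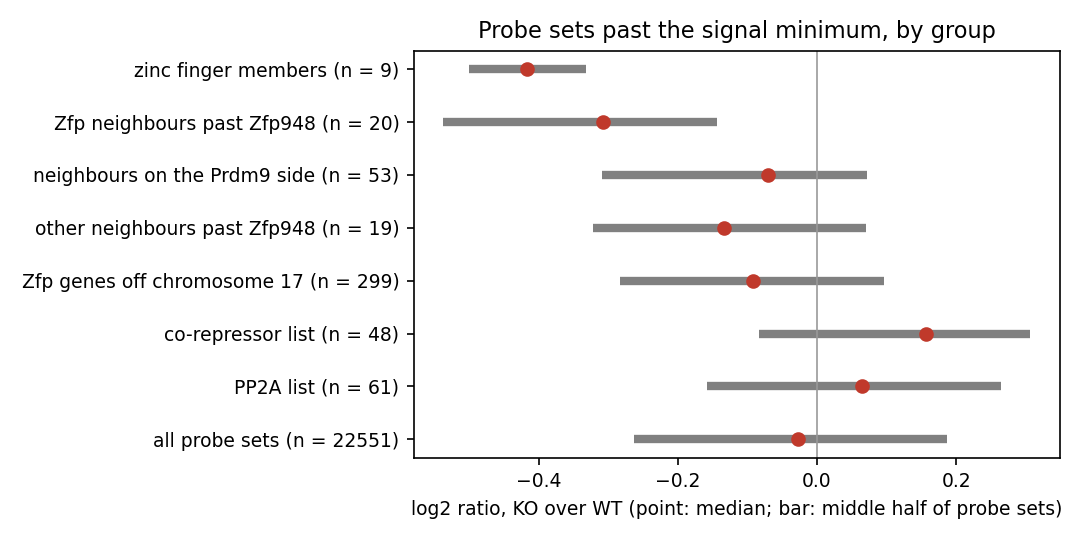
Median log2 ratio of miR-125a KO over WT signal (points) and the span between the lower and upper quartiles (bars) for 8 sets of probe sets past the minimum, whose number is in brackets; cell type markers are not drawn. The zinc finger members, picked on this contrast, lie at -0.42, the Zfp neighbours at -0.31 and the co-repressor list at 0.16.

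The sorted cells carried the markers of T cells on both arrays, with Cd3d at 19862 in the miR-125a KO pool and 19986 in the WT pool and Il2ra, which encodes CD25, at 18551 against 15390. Foxp3, the factor that defines Treg cells, was at 694 against 1631, a log2 ratio of -1.21 (probe-set SD 0.20). Of the 12 T cell marker probe sets past the minimum, it was the only 1 to reach 2-fold. At least 1.2-fold lower were 2 of the 12, Foxp3 and Cd3e (-0.41). At least 1.2-fold higher were 2, the Il2ra probe set above (0.27) and the brightest of Ikzf2 (0.45). The 13 T cell probe sets summed to 96853 against 95515, sums in which the brightest probe sets weigh most. Of 6 B cell probe sets, 2 passed the minimum, and the 6 summed to 321 against 330. None of the 2 NK cell, 4 neutrophil and 2 erythroid probe sets passed, with sums of 44.7, 46.4 and 7.03 in the miR-125a KO pool, against 16.2, 180 and 10.8 in the WT pool. Of 6 probe sets of the CD8 markers Cd8a and Cd8b1, 5 were at least 1.2-fold lower, against 25% of all probe sets, and the other was at 0.15. The median log2 ratio of the 6 was -0.43, and their summed signal was 1304 in the miR-125a KO pool against 1736 in the WT pool. Of the 9 macrophage, monocyte and dendritic cell probe sets, 2 passed the minimum, both lower, and the 9 summed to 350 against 421. The part of these cells in the lower zinc finger signals was not tested. In pooled bulk RNA, fewer cells of a type and less RNA per cell cannot be told apart.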

How the data were processed

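Treg cell RNA was pooled by genotype and read on 1 array per genotype. The authors deposited log2 values made with MAS5, per the submitters' processing notes, which give no version. MAS5 subtracts mismatch signal, which makes dim values erratic. Turned back to linear signal, both arrays had the same 2% trimmed mean, 500.0, the median signal was 62.4 on the miR-125a KO array and 64.1 on the WT array, and 473 and 552 probe sets stood at the lowest log2 value, 0. Detection calls were not used here.

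Probe sets were named through GEO's platform annotation, 34945 naming 1 gene. Gene order came from the RefSeq gene table of GRCm38.p6, in which all 10 members were found, and sequences came from RefSeq tables of that build. Each probe set was used separately. Probe-set SDs came from the 2 brightest probe sets of 5030 genes. Ratios were computed with Python 3.11.15, numpy 2.4.6 and pandas 2.3.3, and the calls were tested on simulated data. Named genes other than members were those at 2-fold or more in a list or, where fewer than 3 were, its highest and lowest. Trim28, Setdb1, Dnmt1, Ppp2ca, Igf2r, Zfp292, the Zfp neighbours other than Zfp994 and the cell type markers quoted were named beside that rule. The members and lists were chosen with earlier results of these data known. Alternatives were 3 scalings, 2 pseudocounts, 2 filters, 2 folds and 2 choices of probe sets.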

Additional observations from a re-analysis of the deposited data

How the results depend on the processing

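Ratios of the 22 member probe sets were recomputed with 3 scalings and 2 pseudocounts. Of 110 values, 104 stayed within 1 probe-set SD of the value given, and the 6 others were of dim Spaca6 and Zfp54 probe sets when the pseudocount changed. The count of zinc finger member probe sets at least 1.2-fold lower was 8 of 9 as given, 8 of 9 with a pseudocount of 1 or without _s_at and _x_at probe sets, 7 of 9 with equal medians or the median pseudocount, and 6 of 9 with quantile or loess scaling. Where the probe sets counted changed, it was 6 of 6 with the 75th percentile minimum, 6 of 7 with the brightest probe set of a gene and 9 of 13 with no minimum. Those of Zfp54 and Zfp53 nearest to the threshold were at -0.25 and -0.23 in the setting nearest to 0.

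Counts at 2-fold are small and changed with the processing. With no minimum, members had 1 probe set higher and 1 lower (both Spaca6), neighbours 5 and 6, other Zfp genes 14 and 16, the PP2A list 2 and 3, and the co-repressor list 2 higher. At 1.5-fold, members had 1 higher (Prdm9) and 1 lower (Zfp53), neighbours 1 and 14, other Zfp genes 5 and 30, the PP2A list 3 and 1, and the co-repressor list 2 higher. At 3-fold, 0 neighbours and 2 other Zfp probe sets were lower. With each of the 3 scalings (equal medians, quantile, loess), 1 neighbour was lower, and 1 other Zfp and 1 co-repressor probe set were higher. With a pseudocount of 1, 1 member (Prdm9), 1 other Zfp and 1 co-repressor probe set were higher and 1 PP2A probe set was lower. With the pseudocount at the median signal, 0 neighbours and 2 other Zfp probe sets were lower. With the 75th percentile minimum, 0 neighbours and 1 other Zfp probe set were lower. Without _s_at and _x_at probe sets, 3 other Zfp probe sets were lower, and with the brightest probe set of a gene, 0 neighbours were. The cause was not tested beyond what these settings remove. No scaling moved the median of all probe sets past the minimum by over 0.1. No paired analysis was possible because there is 1 pooled array per genotype, and for the same reason no replicate could be left out.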
